A study of Rattus norvegicus with 20 samples.

Results

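The genes described here encode the coats, GTPases, SNAREs, cargo receptors and matrix proteins that carry secretory cargo between the endoplasmic reticulum (ER) and the Golgi apparatus. They are the 35 genes of a named set of COPII, COPI and Golgi transport genes whose symbol stands in the deposited expression table and whose value exceeded the table's lowest value in at least 1 library. All 35 met this rule, out of 16748 genes in the table and 14022 that could be tested. They comprise 12 genes of the COPII coat and ER exit sites, 8 of the COPI coat, 2 ARF GTPases, 4 SNAREs, 6 cargo receptors and 3 Golgi matrix genes.

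RNA came from the fat layer of milk of wild-type Sprague-Dawley rat dams that received either lipopolysaccharide (LPS), the endotoxin of Gram-negative bacteria, or saline free of pyrogens. The injection fell on postnatal day 10. Milk was let down with oxytocin under light isoflurane 2 h after the injection (P10) or 24 h after it (P11), so every group shared the injection, the anaesthetic and the oxytocin. The groups were P10 saline, P10 LPS, P11 saline and P11 LPS, with 5 libraries each and 20 in all. The labels name 14 dams, 7 per treatment, of which 3 saline and 3 LPS dams gave milk on both days. The value columns name no dam, so libraries of both days may share dams in a way that could not be modelled. Dams that gave milk on both days had already been milked once, with oxytocin and isoflurane, by P11. The age of the litter, the time since the injection and any earlier milking changed together and cannot be told apart.

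COPII coats bud vesicles from ER exit sites: SAR1 starts the coat, SEC23 and SEC24 form its inner layer, with SEC24 reading cargo signals, and SEC13 and SEC31 form the outer cage. COPI coats, recruited by ARF GTPases, return escaped ER proteins and receptors from the Golgi and act within it, while SNAREs drive fusion at the target membrane. The lactating epithelial cell sends caseins and whey proteins along this route, and its milk fat globules carry remnants of its cytoplasm, one source of the RNA of milk fat beside the cells shed into milk.

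Defining genes of the secretory epithelium were abundant in every library. Normalised counts of the casein gene Csn2 ranged from 1679312 to 23781344, those of the whey protein gene Wap from 421975 to 5510238, and those of the luminal keratin gene Krt8 from 6401 to 41939. Library 2 of P11 saline stood apart: across genes it correlated at 0.976 to 0.986 with the 10 P10 libraries and at 0.874 to 0.932 with the 9 others of P11, so P11 saline is also given without it. Neutrophil markers moved with the day. Their 14 genes summed to 250.6 to 432.4 normalised counts in P10 saline and 280.1 to 1329 in P10 LPS, against 423.8 in library 2 and 11098 to 36314 in the other P11 saline libraries, and 6344 to 21368 in P11 LPS. Of these markers 11 rose between the days in saline dams and 12 in LPS dams (limma). Mpo and Elane, which encode granule enzymes, were at 0 in every P10 library. Elane was also at 0 in every P11 saline library and Mpo in every P11 LPS library. Macrophage and monocyte markers rose for 6 of 13 in saline and 5 of 13 in LPS dams. Cd163 was at 0 at P10, and Marco and the B cell gene Ms4a1 were at 0 in all 4 groups. Myoepithelial markers summed to 1333 to 2520 normalised counts in the P10 libraries, against 2870 in library 2 and 8325 to 13314 in the other P11 libraries, with 4 of 10 rising and 1 falling in saline dams and 5 rising and 1 falling in LPS dams; Oxtr, the oxytocin receptor gene, was at 0 in P10 LPS. Of 8 lymphocyte and plasma cell markers 2 fell in saline dams, and 2 rose and 2 fell in LPS dams; of 7 red blood cell markers 1 rose and 3 fell in saline dams and 1 rose in LPS dams. Luminal markers, summing to 103131 to 141087 in P10 and 106963 to 204205 in P11 libraries, rose for 7 of 12 and fell for 3 in both treatments. Beside these marker counts, 25.6% of all genes tested rose and 21.2% fell in saline dams (limma). In LPS dams 30.9% rose and 22% fell. The part of these cell types in the results below was not tested. The depth of each library cannot be read from the deposited normalised values.

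Between 2 h and 24 h most of the transport genes fell on the deposited scaling. Taken as a share of all counts most of them were higher at 24 h, but so were most genes tested. In saline dams 57.3% of all genes rose on that scale (limma), with a median of 0.69 against 0.50 for the 35. The counts of positive genes on that scale given below are to be read beside this. On the deposited scaling, 24 of the 35 fell and 1, Arf4, rose in saline dams (limma, adjusted p under 0.05), where 21.2% of all genes tested fell and 25.6% rose. In LPS dams 27 fell and 0 rose (limma; 0 rose at an unadjusted p under 0.05 too), against 22% and 30.9% of all genes. The median log2 difference of the 35 genes was -0.62 in saline and -0.72 in LPS dams, and that of all genes tested was 0.05 and 0.10. Without library 2, 25 genes fell and 1 rose in saline dams, against 24.8% and 31.9% of all genes, with a median of -0.76. In bulk milk RNA, fewer cells or globules of a type and less RNA per cell cannot be told apart. Fold changes are differences on the deposited log2 scale with the model's SE, and limma's adjusted p is two-sided over the 14022 genes.

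**Figure D1:**
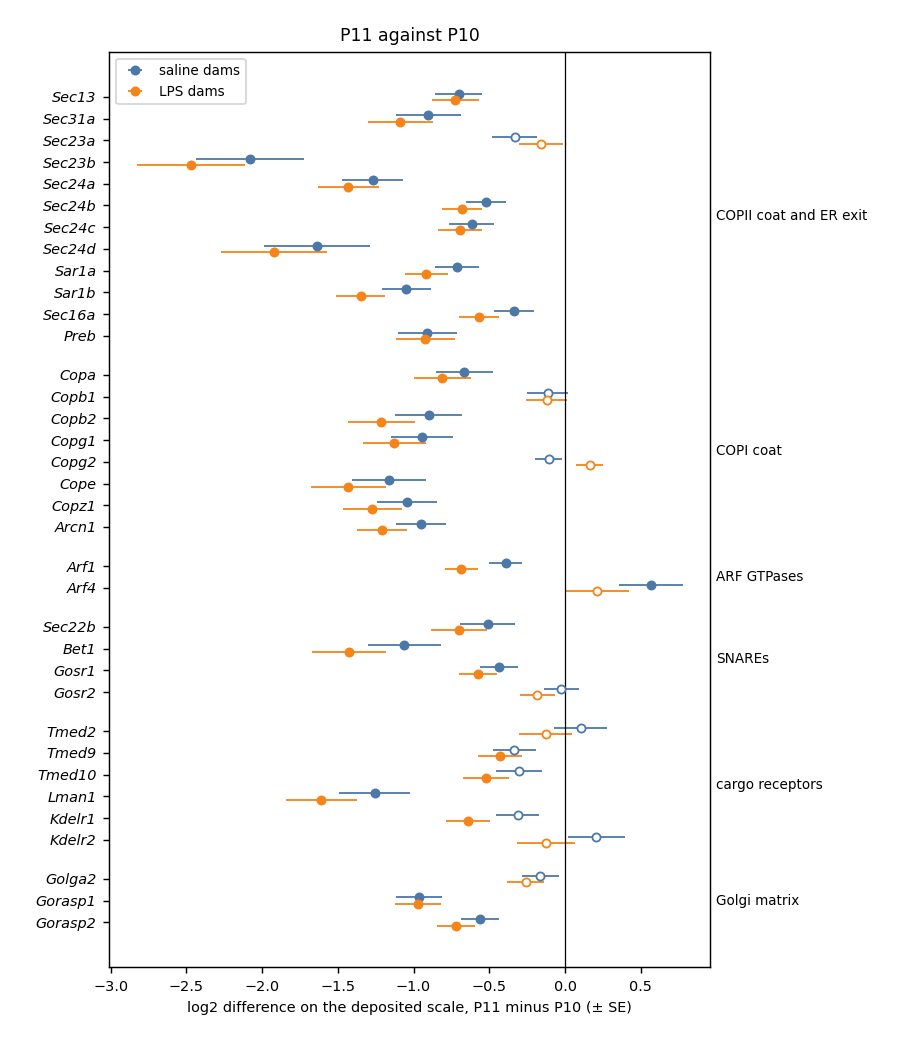
Each point is the log2 difference on the deposited scale between P11 and P10 for one gene, with its SE, in saline (blue) and LPS dams (orange); filled points passed limma's threshold. Points lie left of 0 for 32 genes in saline and 33 in LPS dams on this scaling. As a share of all counts 30 and 32 genes were positive, on a scale where most genes tested rose.

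Sec23b and Sec24d of the COPII group had the largest falls of the 35 in each treatment. Of its 12 genes, 11 fell in saline dams, with a median of -0.81, and 11 in LPS dams, with a median of -0.92, although as a share of all counts 9 and 10 of the 12 were positive. Sec23b, like Sec23a, encodes a SEC23 subunit, which activates the SAR1 GTPase within the coat. In saline dams its normalised counts were 22058, 29455, 25847, 21495 and 23622 in P10 libraries 1 to 5 and 4448, 22394, 5565, 3572 and 2965 in P11 libraries 1 to 5. In LPS dams they were 22764, 19315, 24587, 24122 and 21507 at P10 and 4284, 5080, 5031, 3148 and 2846 at P11. All P11 libraries were far below all P10 libraries except library 2 of P11 saline, which lay among them. Sec23b fell in both treatments. Its log2 difference was -2.08 ± 0.36 (SE) in saline dams (limma adjusted p = 2.47e-04; -2.57 ± 0.18 without library 2) and -2.47 ± 0.36 in LPS dams (limma adjusted p = 3.03e-05).

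The other large COPII changes were in the cargo-reading SEC24 subunits. Sec24d had 8376, 9726, 9487, 9894 and 8497 normalised counts in P10 saline and 2205, 10545, 3219, 2303 and 1124 in P11 saline. It had 8485, 8125, 10733, 8448 and 9565 in P10 LPS and 2054, 2920, 2514, 2551 and 1736 in P11 LPS. The LPS groups did not overlap, and in saline library 2 of P11 exceeded every P10 library while the other 4 lay below all of them. Sec24d fell, with a difference of -1.64 ± 0.35 in saline (limma adjusted p = 0.00105; -2.10 ± 0.20 without library 2) and -1.92 ± 0.35 in LPS dams (limma adjusted p = 1.92e-04).

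Sec24a had 8463, 9015, 7954, 9028 and 5986 normalised counts in P10 saline and 2291, 5758, 3900, 3488 and 2065 in P11 saline. It had 7513, 8493, 7258, 6713 and 8036 in P10 LPS and 2761, 2842, 2843, 3111 and 2282 in P11 LPS. The days did not overlap in either treatment, library 2 included. Sec24a fell, with a difference of -1.27 ± 0.20 in saline (limma adjusted p = 1.44e-04) and -1.43 ± 0.20 in LPS dams (limma adjusted p = 2.32e-05).

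Sec24b and Sec24c fell in both treatments as well. Sec24b had 2975, 2916, 3002, 2856 and 2441 normalised counts in P10 saline, 1441, 2659, 2350, 1655 and 1862 in P11 saline, 2329, 2452, 2918, 2895 and 2565 in P10 LPS and 1594, 1558, 1486, 1863 and 1551 in P11 LPS. Its difference was -0.52 ± 0.13 in saline and -0.68 ± 0.13 in LPS dams. Sec24c had 8775, 10314, 10912, 9128 and 9423 in P10 saline, 5229, 9481, 7086, 5526 and 5027 in P11 saline, 6701, 7813, 9000, 8989 and 8261 in P10 LPS and 4909, 5390, 4982, 5510 and 4219 in P11 LPS. Its difference was -0.62 ± 0.15 and -0.69 ± 0.15. With equal counts outside the milk protein list, the Sec24b calls were lost in both treatments (limma adjusted p = 0.0552 and 0.0621) and the Sec24c call in LPS dams (0.0809). For both genes the LPS groups did not overlap, while in saline the days met at library 2 of P11 alone, which lay within the P10 range.

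With all libraries, Sec23a was the 1 COPII gene that passed in neither treatment. Its normalised counts were 754.5, 814.2, 905.1, 772.7 and 663.2 in P10 saline, 415.5, 737.7, 771.3, 699.8 and 463.5 in P11 saline, 655.9, 568.8, 671.8, 664.1 and 531.4 in P10 LPS and 506.3, 552.4, 471.4, 635.7 and 559.3 in P11 LPS. The days overlapped in both treatments. Its difference was -0.33 ± 0.15 in saline (limma adjusted p = 0.0688; -0.40 and 0.0252 without library 2, -0.41 and 0.029 without P11 saline library 3) and -0.16 ± 0.15 in LPS dams (limma adjusted p = 0.371). Median centring gave falls in both (-0.55 and -0.43, limma adjusted p = 0.0112 and 0.0382) and the share of all counts gave rises in both (0.70 and 1.36, limma adjusted p = 0.0239 and 1.18e-04). In saline dams it also fell past the threshold with weights per library (0.0398) and after quantile normalisation (0.043).

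Both SAR1 GTPases fell. Sar1b, mutated in human chylomicron retention disease, had 2570, 3138, 2757, 3294 and 2952 normalised counts in P10 saline, 1172, 2259, 1184, 1408 and 1098 in P11 saline, 3462, 3788, 2724, 2368 and 3112 in P10 LPS and 1143, 1232, 1323, 1123 and 941.3 in P11 LPS. Its difference was -1.05 ± 0.16 and -1.35 ± 0.16, with no overlap of the days in either treatment. Sar1a had 7786, 9632, 11154, 9264 and 10610 in P10 saline, 5309, 9394, 5360, 5250 and 4774 in P11 saline, 9921, 8749, 8955, 8506 and 9054 in P10 LPS and 4725, 4661, 4984, 5088 and 4298 in P11 LPS. Its difference was -0.71 ± 0.14 and -0.92 ± 0.14, with an overlap in saline through library 2 only.

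The cage genes fell too: Sec13, whose product also belongs to the nuclear pore, with -0.70 in saline and -0.72 in LPS dams, and Sec31a with -0.90 and -1.09. Preb, which encodes the exchange factor that loads SAR1 with GTP at the ER, fell with -0.91 and -0.92. Sec16a, the scaffold of ER exit sites, fell with -0.34 ± 0.13 in saline (limma adjusted p = 0.0429) and -0.57 ± 0.13 in LPS dams (limma adjusted p = 0.00148).

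**Figure D2:**
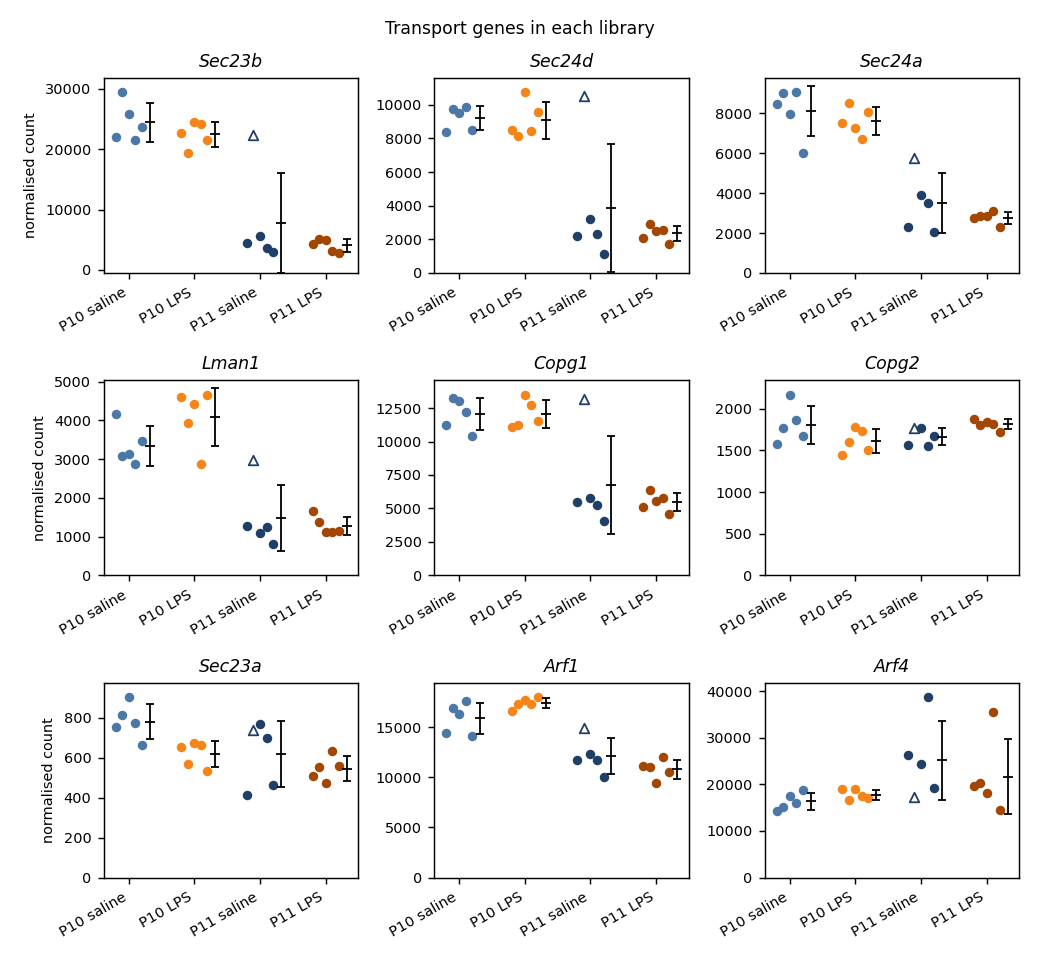
Normalised counts of 9 transport genes in each library by group, with the mean and SD to the right of each group of 5 points; the open triangle is library 2 of P11 saline. On this scaling Sec23b, Sec24d, Lman1 and Copg1 are lower at P11 in every library but that one and Sec24a in all, Copg2 and Sec23a overlap between the days, and Arf4 is higher in the P11 saline libraries other than that one; as a share of all counts the difference of Copg1 was positive in both treatments.

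Of the 8 COPI genes, 6 fell in both treatments, with group medians of -0.92 in saline and -1.17 in LPS dams, while as a share of all counts 7 and 8 of them were positive. The coatomer subunits that fell were Copa (-0.66 in saline and -0.81 in LPS dams), Copb2 (-0.90 and -1.21), Cope (-1.16 and -1.43), Copz1 (-1.04 and -1.27), Arcn1 (-0.95 and -1.21) and Copg1 (-0.95 and -1.13). Copb1 differed by -0.11 and -0.12 and did not pass (limma adjusted p = 0.518 and 0.474). The gamma subunits, which are alternatives within the coat, differed in outcome. Copg1 had 11249, 13227, 13067, 12224 and 10400 normalised counts in P10 saline, 5509, 13167, 5788, 5269 and 4062 in P11 saline, 11090, 11269, 13502, 12744 and 11566 in P10 LPS and 5114, 6402, 5524, 5759 and 4592 in P11 LPS. Copg2 had 1575, 1770, 2169, 1865 and 1668 in P10 saline, 1570, 1765, 1766, 1557 and 1669 in P11 saline, 1449, 1604, 1786, 1737 and 1503 in P10 LPS and 1879, 1801, 1846, 1817 and 1726 in P11 LPS. Copg1 was lower in every P11 library but library 2, whereas the Copg2 values of the days overlapped in both treatments. The Copg2 differences, -0.11 ± 0.09 and 0.16 ± 0.09, did not pass (limma adjusted p = 0.343 and 0.135). Under other scalings they did: Copg2 rose in LPS dams after quantile normalisation (0.27, limma adjusted p = 0.00958), with equal counts outside the milk protein list (0.57, 2.09e-04) and as a share of all counts (1.78, 5.55e-06). In saline dams it rose as a share of all counts (0.99, limma adjusted p = 0.00154) and fell after median centring (-0.33, 0.021).

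The ARF GTPases, which recruit COPI and other coats to Golgi membranes, also differed in outcome. Arf1 had 14422, 16937, 16279, 17631 and 14089 normalised counts in P10 saline, 11768, 14925, 12271, 11723 and 9984 in P11 saline, 16637, 17281, 17686, 17294 and 18011 in P10 LPS and 11155, 11039, 9389, 11972 and 10532 in P11 LPS. Its difference was -0.39 ± 0.11 in saline (limma adjusted p = 0.00592) and -0.68 ± 0.11 in LPS dams (limma adjusted p = 5.46e-05), with no overlap in LPS dams and an overlap through library 2 in saline. The Arf1 calls were lost after quantile normalisation (limma adjusted p = 0.428 in saline and 0.0536 in LPS dams) and, in saline dams, with equal counts outside the milk protein list (0.166). Arf1 rose in both as a share of all counts (0.73 and 0.97, limma adjusted p = 0.00451 and 3.15e-04). Arf4, which acts with ARF1 at the early secretory pathway and in the sorting of membrane cargo, had 14322, 15221, 17595, 15964 and 18708 in P10 saline, 26219, 17314, 24272, 38769 and 19209 in P11 saline, 18921, 16622, 18980, 17486 and 16983 in P10 LPS and 19565, 20345, 18227, 35454 and 14491 in P11 LPS. The saline groups overlapped only through library 2 and the LPS groups overlapped, with library 4 the highest of P11 in both treatments. Arf4 rose by 0.57 ± 0.21 in saline dams (limma adjusted p = 0.0328; 0.69 ± 0.20 and 0.00725 without library 2) and differed by 0.21 ± 0.21 in LPS dams (limma adjusted p = 0.405). The saline call was lost without any 1 of P10 saline libraries 1, 2 and 4 and P11 saline libraries 1, 3 and 4, where limma's adjusted p ran from 0.0566 to 0.11, and with the groups compared alone (0.0597). In LPS dams Arf4 rose past the threshold after quantile normalisation (0.72, limma adjusted p = 0.0221), with equal counts outside the milk protein list (0.61, 0.0295) and as a share of all counts (1.87, 8.6e-05).

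Of the 4 SNAREs, 3 fell in both treatments, with medians of -0.47 and -0.64, while as a share of all counts all 4 were positive in both. With equal counts outside the milk protein list, only 1 of the 4 fell in each treatment (limma). The values that follow are on the deposited scaling. Bet1 (-1.06 and -1.43) and Gosr1 (-0.44 and -0.57) fell, whereas Gosr2, another Golgi SNARE, differed by -0.03 and -0.18 and did not pass. Sec22b, an ER to Golgi SNARE, had 2780, 3338, 3993, 3163 and 3885 normalised counts in P10 saline, 2171, 3465, 2609, 2776 and 1335 in P11 saline, 2868, 2443, 3055, 3320 and 2927 in P10 LPS and 1736, 1896, 1755, 2111 and 1371 in P11 LPS. The days overlapped in saline through library 2 alone and not in LPS dams. Sec22b fell, with -0.51 ± 0.18 in saline (limma adjusted p = 0.0276) and -0.70 ± 0.18 in LPS dams (limma adjusted p = 0.00353). The saline call was lost without P10 saline library 3 or 5 or P11 saline library 1 or 5 (limma adjusted p from 0.0591 to 0.0882) and with the groups compared alone (0.108). It was also lost after quantile normalisation (0.0638) and, as was the LPS call, with equal counts outside the milk protein list (0.199 in saline and 0.162 in LPS dams). Sec22b rose in LPS dams as a share of all counts (0.91, limma adjusted p = 0.00352).

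Of the 6 cargo receptors 1 fell in saline dams and 4 fell in LPS dams, where 21.2% and 22% of all genes fell. With equal counts outside the milk protein list, 1 of the 6 fell in each treatment (limma). On the deposited scaling the medians were -0.31 and -0.47, whereas as a share of all counts 5 of the 6 were positive in each. Lman1, the lectin that carries blood coagulation factors V and VIII out of the ER in humans, was the 1 that fell in both. It had 4170, 3074, 3124, 2863 and 3452 normalised counts in P10 saline and 1279, 2963, 1097, 1241 and 802.0 in P11 saline. It had 4599, 3936, 4421, 2860 and 4660 in P10 LPS and 1652, 1381, 1115, 1108 and 1138 in P11 LPS. The days overlapped in saline through library 2 alone and did not overlap in LPS dams. Its difference was -1.26 ± 0.23 in saline (limma adjusted p = 3.95e-04; -1.53 ± 0.16 without library 2) and -1.61 ± 0.23 in LPS dams (limma adjusted p = 3.02e-05).

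The p24 family members and KDEL receptors, which shuttle between ER and Golgi, had differences of at most 0.64 in size. Tmed10 differed by -0.30 ± 0.15 in saline (limma adjusted p = 0.108) and fell by 0.52 ± 0.15 in LPS dams (limma adjusted p = 0.00726). Kdelr1, which returns ER chaperones, differed by -0.31 ± 0.14 in saline (limma adjusted p = 0.0797) and fell by 0.64 ± 0.14 in LPS dams (limma adjusted p = 0.00103). Kdelr1 passed in saline dams without P10 saline library 2 or 3 (limma adjusted p = 0.0442 and 0.0208), and Tmed10 without P10 LPS library 4 (0.0455). Both fell in saline dams after median centring (-0.53 for Kdelr1 and -0.52 for Tmed10, limma adjusted p = 0.0077 and 0.007) and rose in both treatments as a share of all counts. With equal counts outside the milk protein list the LPS calls of Kdelr1 (0.13) and Tmed10 (0.512) were lost, that of Tmed10 also after quantile normalisation (0.239). Tmed9 differed by -0.33 in saline and fell by 0.43 in LPS dams. Tmed2 (0.10 and -0.13) and Kdelr2 (0.21 and -0.13) passed in neither. The treatments were not shown to differ in any of these, since no difference of the effects passed for any of the 35 genes.

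Of the Golgi matrix genes, both GRASP genes fell, Gorasp1 with -0.97 in each treatment and Gorasp2 with -0.56 and -0.72, and Golga2, which encodes the tether GM130, differed by -0.16 and -0.26 and did not pass; as a share of all counts the 3 were positive in both treatments. Counted by library, 6 genes (Sec24a, Sar1b, Arcn1, Gosr1, Gorasp1 and Gorasp2) had every P11 saline library below every P10 saline library, where 5.23% of all genes did, and 0 had the reverse, where 7.12% of all genes did. In LPS dams 25 did, where 18.3% of all genes did, and 0 had the reverse, where 23.5% did. Without library 2 the saline count was 23, against 20.2% of all genes, and Arf4 was then the 1 gene with every P11 library above every P10 library (24.9% of all genes).

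The direction of these changes depended on how libraries were set on a common scale. The deposited normalised counts of a library summed to 51511650 to 80929482 in P10 saline and 60006231 to 99294934 in P10 LPS, against 54648483 in library 2 and 23246758 to 29065868 in the others of P11 saline, and 23930176 to 27600779 in P11 LPS. Milk protein genes took 56.8% to 77.2% of the counts at P10 and 22.6% to 37.7% at P11, library 2 aside (62.5%). The 35 genes together took 0.413% ± 0.108 of all counts in P10 saline and 0.592% ± 0.126 in P11 saline (0.625% ± 0.117 without library 2), and 0.329% ± 0.0834 in P10 LPS and 0.572% ± 0.076 in P11 LPS. On this scale 16 of the 35 rose and 1 fell in saline dams, where 57.3% of all genes rose. In LPS dams 26 rose and 1 fell, where 70% rose. The median of the 35 was 0.50 and 0.91, below the 0.69 and 1.06 of all genes. Of the counts outside the milk protein list the 35 took 1.21% ± 0.0801 in P10 saline and 0.944% ± 0.191 in P11 saline (0.875% ± 0.126 without library 2), and 1.13% ± 0.107 in P10 LPS and 0.838% ± 0.0974 in P11 LPS. The share among these counts was therefore lower at P11, in contrast to the share of all counts.

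**Figure D3:**
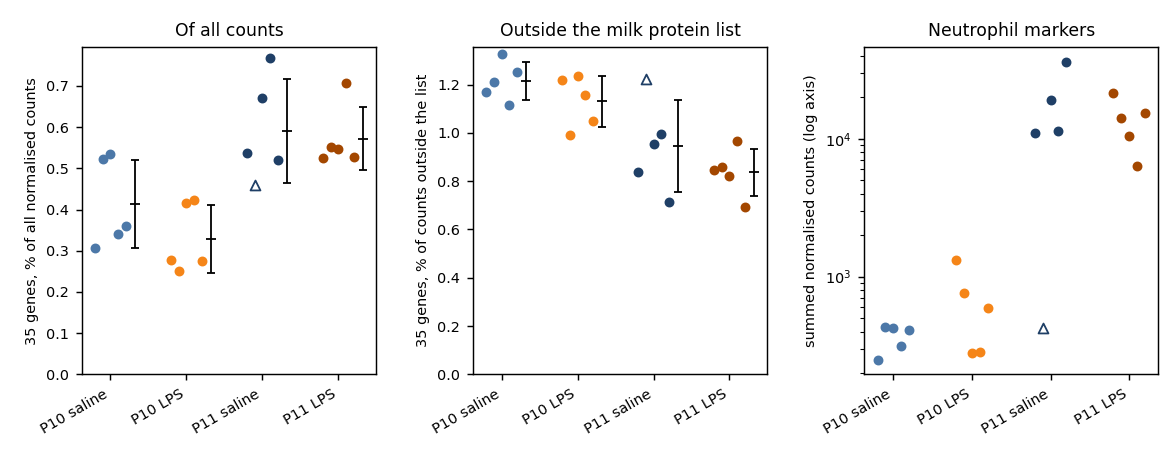
The left panel shows the 35 genes' summed share of all normalised counts per library, the middle panel their share of the counts outside the milk protein list, both with mean and SD, and the right panel the summed neutrophil marker counts on a log axis. The mean share of all counts is higher at P11 (0.592% and 0.572%) than at P10 (0.413% and 0.329%), and the share outside the milk protein list is lower. Library 2 of P11 saline (open triangle) sits with P10 in each panel.

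A few members kept a direction under all 6 scalings compared (deposited, log2 of the normalised count plus 1, quantile normalisation, median centring, equal counts outside the milk protein list, and share of all counts). Sec23b fell under all 6 in both treatments; as a share of all counts its difference was -0.97 (limma adjusted p = 0.0102) in saline and -0.83 (limma adjusted p = 0.0198) in LPS dams. Sec24d and Lman1 were negative under all 6 in both treatments, and Sec24a and Cope in saline dams only, without passing as a share of all counts. Arf4 was positive under all 6 in saline dams, and as a share of all counts it rose by 1.69 there (limma adjusted p = 4.69e-04). Median centring gave the reverse picture to the share of all counts, with 30 genes falling in saline and 31 in LPS dams, where 35.9% and 37.1% of all genes fell, and Arf4 not passing in saline dams (0.35, limma adjusted p = 0.192). After quantile normalisation 21 fell in saline and 22 in LPS dams, where 25.1% and 24.7% of all genes did. With equal counts outside the milk protein list 18 and 17 fell, where 15.1% and 12.4% of all genes did.

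The balance within paralog pairs does not depend on the scaling between libraries, because both genes are read in the same library. Each pair was compared between days by the difference of its log2 values (an exact permutation test, two-sided, adjusted over 8 pairs; with 5 libraries against 5 the smallest p is 0.00794). All 8 pairs shifted in saline dams and all 8 in LPS dams. How often other gene pairs shifted was not examined, so the count is not shown to be particular to these pairs. Of all single genes tested 25.6% rose and 21.2% fell in saline dams (limma). In LPS dams 30.9% rose and 22% fell. Gene length cancels in the shift of this difference between days, but not in its level within a group.

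In the SEC23 pair, Sec23b lost ground to Sec23a. The Sec23a value minus the Sec23b value was -4.82 ± 0.176 (SD, n = 5) in P10 saline and -3.07 ± 1.01 in P11 saline, a shift of 1.75 (exact permutation adjusted p = 0.0423; 2.17 and 0.0106 without library 2). In LPS dams it went from -5.00 ± 0.0904 to -2.69 ± 0.484, a shift of 2.31 (exact permutation adjusted p = 0.00907), with no overlap of the days. In saline dams library 2, at -4.77, lay within the P10 range of -5.04 to -4.65 and the other 4 lay above it.

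The SEC24 pairs shifted as well. Sec24a minus Sec24b went from 1.47 to 0.72 in saline dams, a shift of -0.75 (exact permutation adjusted p = 0.0381), and by -0.75 in LPS dams (exact permutation adjusted p = 0.00907), with no overlap of the days in either treatment. Sec24c minus Sec24d went from 0.08 to 1.10 in saline, a shift of 1.02 (exact permutation adjusted p = 0.0476; 1.33 and 0.0106 without library 2), and from -0.15 to 1.08 in LPS dams, a shift of 1.23 (exact permutation adjusted p = 0.00907). Copg1 minus Copg2 shifted by -0.84 in saline (exact permutation adjusted p = 0.0454; -1.09 without library 2) and -1.29 in LPS dams (exact permutation adjusted p = 0.00907). Sar1a minus Sar1b shifted by 0.33 and 0.43, and Arf1 minus Arf4 by -0.96 in saline (exact permutation adjusted p = 0.0381) and -0.90 in LPS dams (exact permutation adjusted p = 0.00907). Kdelr1 minus Kdelr2 shifted by -0.52 in each treatment, and Gorasp1 minus Gorasp2 by -0.40 and -0.25 (exact permutation adjusted p = 0.0381 and 0.0476). In saline dams all 8 calls were lost without P10 saline library 1 or without P10 saline library 2 (exact permutation adjusted p from 0.0508 to 0.0635). The calls of the SEC23, Sec24c, Copg1 and Gorasp1 pairs were also lost without P10 saline library 5, and those of the Sec24c and Copg1 pairs without P11 saline library 5 (0.0529 to 0.0635). In LPS dams only the Gorasp1 call was lost, without any 1 of P10 LPS libraries 1, 2 and 4 and P11 LPS libraries 2 to 5 (0.0556 to 0.111). How reads that match both genes of a pair were counted is not given in the sources used here.

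**Figure D4:**
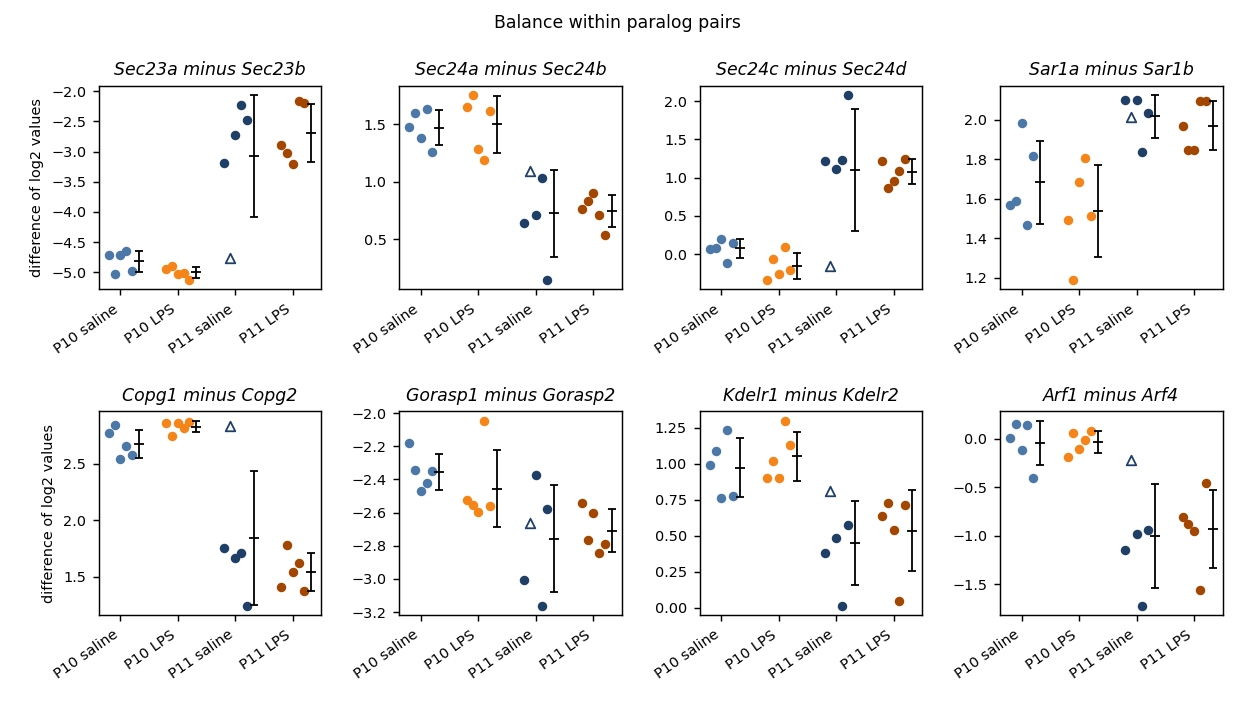
Each panel shows, per library, the deposited log2 value of one gene minus that of its paralog in the 4 groups, with mean and SD; the open triangle is library 2 of P11 saline. The SEC23 pair rises from -4.82 and -5.00 at P10 to -3.07 and -2.69 at P11, and this ratio does not depend on the scaling between libraries.

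The promoters of the SEC23 and ARF pairs are shown because the SEC23 pair had the largest shift and the ARF pair held the 1 gene that rose. RefSeq promoters (GRCr8) were found for 30 of the 35 genes, not for Sec24c, Kdelr2, Sar1a, Gorasp2 and Sec24d. The 250 bases before each start were searched on both strands for CCACG, for the motif TGACGTG and for the longer ER stress response elements ERSE and ERSE-II, which hold the first of these, letters known from elements bound by factors of the unfolded protein response such as XBP1 and ATF6. In the sequences below, given 5′ to 3′ on the gene's strand, capitals mark TGACGTG. They are Sec23a (chr6:82440905-82441154, minus strand), Sec23b (chr3:152392433-152392682, plus), Arf1 (chr10:44513995-44514244, minus) and Arf4 (chr16:1903186-1903435, plus).
Sec23a: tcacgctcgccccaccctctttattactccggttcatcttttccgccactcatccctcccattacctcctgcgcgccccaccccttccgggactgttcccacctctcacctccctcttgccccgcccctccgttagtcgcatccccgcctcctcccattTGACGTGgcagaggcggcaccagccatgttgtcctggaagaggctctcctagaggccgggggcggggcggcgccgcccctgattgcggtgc
Sec23b: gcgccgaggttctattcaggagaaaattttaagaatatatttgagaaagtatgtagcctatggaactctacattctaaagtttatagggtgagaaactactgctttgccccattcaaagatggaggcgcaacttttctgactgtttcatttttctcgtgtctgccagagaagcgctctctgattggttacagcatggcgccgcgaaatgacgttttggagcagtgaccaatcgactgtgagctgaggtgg
Arf1: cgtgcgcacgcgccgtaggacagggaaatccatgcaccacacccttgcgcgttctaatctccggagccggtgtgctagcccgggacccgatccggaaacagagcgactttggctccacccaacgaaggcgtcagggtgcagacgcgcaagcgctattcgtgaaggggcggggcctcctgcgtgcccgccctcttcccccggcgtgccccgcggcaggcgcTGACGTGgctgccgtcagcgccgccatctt
Arf4: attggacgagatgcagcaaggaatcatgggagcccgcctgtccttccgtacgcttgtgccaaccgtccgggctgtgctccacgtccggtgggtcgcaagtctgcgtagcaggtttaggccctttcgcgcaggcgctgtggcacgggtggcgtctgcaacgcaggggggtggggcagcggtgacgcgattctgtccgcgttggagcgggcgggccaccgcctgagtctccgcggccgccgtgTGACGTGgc

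TGACGTG stood 91 bases before the start in Sec23a, 30 in Arf1 and 9 in Arf4 (its first base), and 0 times in the Sec23b window. It was found in 5 of 30 transport promoters (Arf1, Arf4, Copb2, Sec16a and Sec23a), 16.7%, and in 1.54% of all 33469 promoters. CCACG was found in 21 of 30, 70.0%, against 27.2% of all promoters and 30.7% of the 21851 protein-coding ones. A TGACGTG followed by G also holds CCACG on the other strand, so these matches overlap. Both motifs hold the letters CG, and the shares were not matched for how often CG occurs. The 250 bases held CG 19 times in Sec23a, 31 in Arf1 and 29 in Arf4, against 10 in Sec23b. ERSE and ERSE-II had 0 matches among the 30, against 0.0657% and 0.0418% of all promoters. Genes with TGACGTG were among those that fell (Arf1, Copb2 and Sec16a), that rose in saline dams (Arf4) and that did not pass (Sec23a). A match is a description of letters in this window, not a site or a cause.

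At 2 h after the injection no transport gene differed between LPS and saline milk past the threshold. Of the 35, 0 passed limma, as did 0% of the 14022 genes, and 1 had an unadjusted p under 0.05 (622 of all genes did). Without library 2 of P11 saline, which enters the model's shared spread, 3 of the 35 and 1045 of all genes had such a p. Of the 35, 0 passed then too (smallest limma adjusted p = 0.582). The median log2 difference was -0.02 and that of all genes 0. The 6 cargo receptors were all positive, from 0.20 to 0.35, with a median of 0.25, and 11 of the 12 COPII genes were negative, with a median of -0.10, but none passed. As a share of all counts both lists lay lower. Of the 6 receptors 5 were then negative, from -0.12 to 0.03, with a median of -0.07. All 12 COPII genes were negative, with a median of -0.42, so the receptors still lay above them. The median of the 35 was -0.34 with 34 of them negative. No gene had groups that did not overlap, where 0.635% of all genes were lower and 0.378% higher without overlap.

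The receptors with the smallest p were Tmed10 and Kdelr1. Tmed10 had 7516, 5080, 4989, 5790 and 6033 normalised counts in P10 saline and 8581, 8870, 6944, 4890 and 8761 in P10 LPS. Kdelr1 had 6651, 4124, 3758, 5855 and 5219 in P10 saline and 6514, 6721, 5160, 4790 and 7770 in P10 LPS. For Tmed10, LPS libraries 1, 2 and 5 exceeded every saline library and library 4 lay below every one, so the groups overlapped, and those of Kdelr1 did too. The differences were 0.35 ± 0.15 and 0.28 ± 0.14 (limma adjusted p = 1 for both). Sec23a and Sec24c, whose library values stand above, differed by -0.30 ± 0.15 and -0.25 ± 0.15 (limma adjusted p = 1 for both), with overlapping groups. The authors' deposited table for this comparison, made with DESeq2, is by its name a list of genes significant by p-value. It held 1024 genes, beside 16748 in the expression table. Of the 35 genes 4 were listed, with DESeq2 unadjusted p from 0.0167 to 0.0437. Of these 4, 0 were among the 48 genes under an adjusted p of 0.05. The authors' deposited table gave log2 fold changes of -0.333 for Sec23a (DESeq2 adjusted p = 0.336), -0.293 for Sec31a (0.468), 0.378 for Tmed10 (0.488) and -0.251 for Sec24c (0.488).

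**Figure D5:**
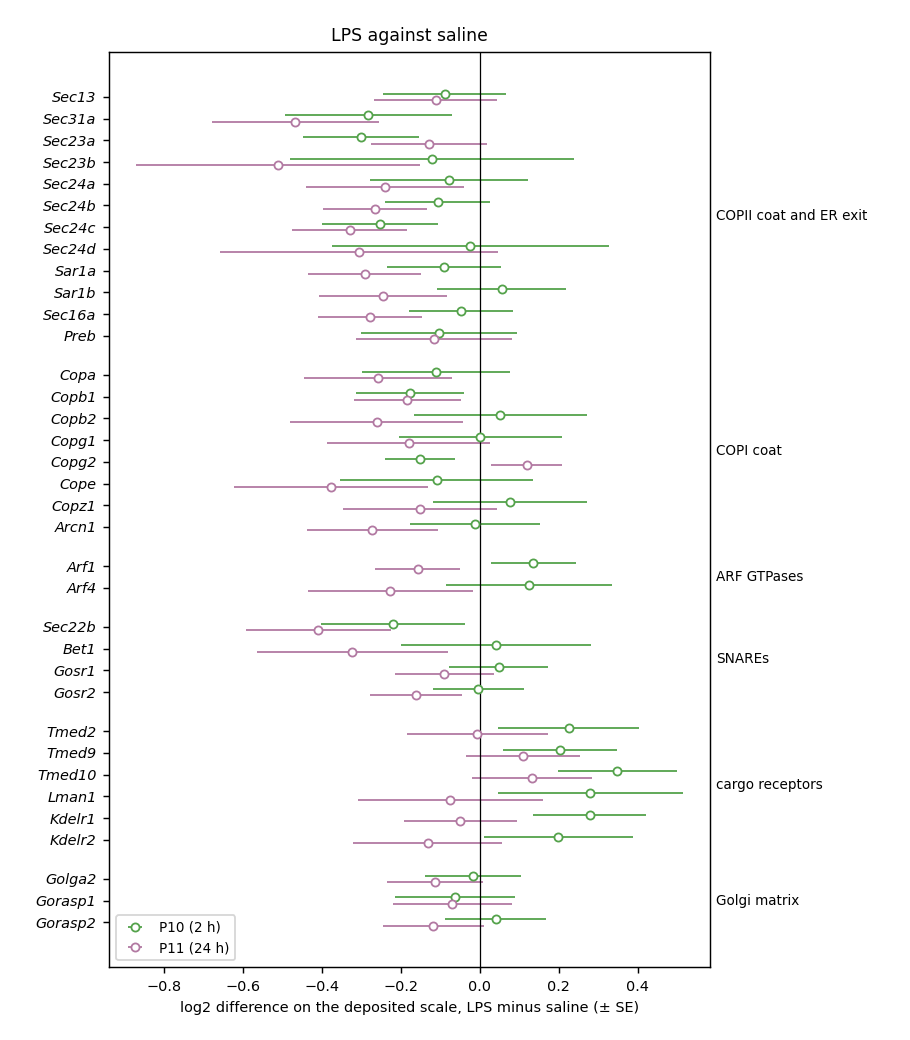
Each point is the log2 difference on the deposited scale between LPS and saline libraries for one gene, with its SE, at P10 (green) and P11 (purple); all points are open because none passed limma's threshold. At P10 the 6 cargo receptors lie right of 0. At P11 32 of the 35 genes lie left of 0 (25 without library 2 of P11 saline). As a share of all counts 5 of the 6 receptors and all 12 COPII genes were negative at P10, and 19 of the 35 genes were positive at P11.

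At 24 h, again 0 of the 35 passed (limma), where 0.0856% of all genes did, all 12 of them higher with LPS, and 4 of the 35 had an unadjusted p under 0.05 (1004 of all genes). Without library 2, 0 of the 35 passed, where 0.0642% of all genes did, and 0 had an unadjusted p under 0.05 (1445 of all genes). The median was -0.18, with 32 of 35 negative, against 0.02 for all genes; without library 2 it was -0.04 with 25 negative. As a share of all counts the median turned to 0.02, with 19 of the 35 positive and 16 negative, against 0.13 for all genes. No gene had groups that did not overlap, where 0.264% of all genes were lower and 0.385% higher.

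Sec24c and Sec22b had the smallest p among those lower with LPS at 24 h. Their library values stand above, and for both the saline and LPS groups overlapped. The differences were -0.33 ± 0.15 and -0.41 ± 0.18 (limma adjusted p = 0.672 and 0.673), and -0.18 ± 0.12 and -0.27 ± 0.17 without library 2. Among those higher, Copg2 differed by 0.12 ± 0.09 (limma adjusted p = 0.813). Tmed10 had 5572, 3864, 4438, 5271 and 4552 normalised counts in P11 saline and 5554, 5084, 4939, 5170 and 5071 in P11 LPS, a difference of 0.13 ± 0.15 (limma adjusted p = 0.867; 0.06 without library 2). Its 2 groups overlapped. The authors' deposited table for P11, by its name also a list of genes significant by p-value, listed 0 of the 35. It held 1085 genes, beside 16748 in the expression table, and 19 of them were under an adjusted p of 0.05.

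The LPS effect at 24 h did not differ from that at 2 h past the threshold for any of the 35 genes (limma, 0 passing, where 0.0357% of all genes passed; 0 and 0.0285% without library 2). At an unadjusted p under 0.05, 1 of the 35 was seen with all 20 libraries and 1 without library 2. Copg2 had the smallest p, with a difference of the effects of 0.27 ± 0.13 (limma adjusted p = 0.968; 0.543 without library 2), as its level was lower with LPS at P10, by -0.15, and higher at P11, by 0.12. Sec23a differed by 0.17 ± 0.21, Arf1 by -0.29 ± 0.15 and Kdelr1 by -0.33 ± 0.20 (limma adjusted p = 0.968 for each). Kdelr1 had 4268, 4283, 3957, 3944 and 3662 normalised counts in P11 saline and 4089, 3881, 3789, 3836 and 3800 in P11 LPS, overlapping ranges. None of the 8 paralog ratios differed with LPS, with exact permutation adjusted p (two-sided) of at least 0.254 at P10 and 0.944 at P11 (0.816 without library 2).

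Other genes of ER to Golgi transport moved in the same comparisons, and 8 regulators of secretory capacity were counted with them. Together 86 of 96 listed were in the table and detected. Of the 8 regulators alone, 3 fell and 2 rose between the days in saline dams, and 4 fell and 2 rose in LPS dams. In saline dams 45 of 86 fell and 10 rose between the days, with a median of -0.40, where 21.2% of all genes fell and 25.6% rose, and in LPS dams 52 fell and 9 rose, with a median of -0.49, where 22% fell and 30.9% rose. Tethers and Rab GTPases fell for 13 of 19 in saline and 14 of 19 in LPS dams, further coat and ARF regulators for 9 and 12 of 16, SNAREs and their Sec1 partners for 7 and 8 of 12, and COG complex and golgin genes for 8 of 15 in each, where 4 rose. As a share of all counts 50 of the 86 rose and 5 fell in saline dams, where 57.3% of all genes rose and 3.25% fell, and 68 rose and 2 fell in LPS dams, where 70% rose and 2.06% fell. Further cargo receptors were divided, with 5 of 16 falling and 2 rising in saline dams and 6 falling and 2 rising in LPS dams. At P10 15 of these 16 receptors were positive with LPS, with a median of 0.20, and none passed. As a share of all counts 2 of the 16 were positive, with a median of -0.10. None of the 86 passed at P10 or P11 (limma), where 2 and 2 had an unadjusted p under 0.05. Without library 2 of P11 saline, 4 and 1 of the 86 had such a p and none passed.

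Among the regulators of secretory capacity, Bhlha15, which encodes the secretory-cell factor MIST1, fell from 8316 ± 829.8 to 1302 ± 2009 normalised counts in saline (406.4 ± 174.9 at P11 without library 2), a difference of -3.48 ± 0.52, and also in LPS dams (-4.01). Xbp1, an effector of the unfolded protein response named after its values were seen, fell from 20345 ± 5146 to 9472 ± 5590 in saline (-1.21) and also in LPS dams (-1.62). The largest falls of other transport genes were those of Rab18, a lipid droplet and ER GTPase (-2.08 in saline and -2.57 in LPS dams), and of 2 coat genes. These were Copz2, an alternative zeta subunit of COPI (-1.88 and -1.93), and Sec16b, an ER exit site scaffold (-1.67 and -2.06). The largest rises were those of Cnih4, a cargo receptor, by 1.495 and 1.49, and of Golgb1, which encodes giantin, by 1.15 and 1.35. Next came Creb3, a transcription factor that resides in the ER membrane, which rose by 1.01 in saline and 1.22 in LPS dams. Atf6, an ER stress sensor, rose by 1.09 in saline dams (0.56 in LPS dams, limma adjusted p = 0.0933). As a share of all counts Bhlha15 (-2.52 in saline and -2.54 in LPS dams), Rab18 (-0.96 and -0.92) and Copz2 (-0.96 in saline) still fell, and Cnih4, Golgb1, Atf6 and Creb3 were higher in both treatments. On that scale Copz2 differed by -0.50 in LPS dams and did not pass (limma adjusted p = 0.109). Sec16b, which fell by 1.67 in saline dams on the deposited scaling, still fell there as a share of all counts (-0.59, limma adjusted p = 0.0348). In LPS dams it differed by -0.46 on that scale and did not pass (limma adjusted p = 0.0888). Xbp1 differed by -0.09 in saline and 0.03 in LPS dams and did not pass (limma adjusted p = 0.602 and 0.878).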

How the data were processed

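RNA from milk fat was sequenced by the submitters as stranded mRNA libraries, 5 per group. The authors deposited 1 table of log2-scale values for 16748 genes in 20 columns, all assigned to a group. Its name calls them rlog, but their lowest value of 5.46 is shared by all columns and their form is that of a variance-stabilising transformation, so it was inverted to obtain the normalised counts of each library. The submitters' processing notes name DESeq2 and the build rn6, without versions. Aligner, counter and annotation, not given in the sources used here, remain unnamed. The authors also deposited, for each day, genes of their LPS comparison under a name that calls them significant by p-value, so not all genes are listed. Per the file headers these tables hold log2 fold changes with errors, a score (the Wald statistic) and a raw and an adjusted p-value. They also hold another unit, the base mean of normalised counts. From these tables only values credited to them are printed. The normalised values do not give whole reads, so depth and counting error are unknown and errors are the spread between libraries.

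limma 3.58.1 in R 4.3.3 was fitted to the deposited log2 values of the 14022 genes above the lowest value in at least 1 library (2726 were not), with 1 mean per group, all 20 libraries, a mean-variance trend and Benjamini-Hochberg adjustment at 0.05. The fit was tested on simulated data. Differences for genes near the lowest value are compressed on this scale. Ratios of 8 paralog pairs were compared by two-sided exact permutation. The labels call the libraries biological replicates. Alternatives were other scalings, pseudocounts of 1 and 10, a filter at a mean of 6.5 or none, other model settings and leaving out each library. The members and lists were chosen with earlier results of these data known. Values per library are printed for the 4 members of largest rise and fall among those passing between days, for the 2 members of smallest p in each direction where none passed, and for both genes of up to 3 pairs of smallest p. Up to 3 further genes per direction are named.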

Additional observations from a re-analysis of the deposited data

Results flagged for a closer look

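In 72 groups of 5 libraries (16 named genes and 2 summed shares in 4 groups each), 3 held a library whose gap to the nearest other exceeded Dixon's critical value of 0.71 of the group's range. Chance alone gives this in about 1 group in 20. Sar1a in P11 saline had a log2 value of 13.21 in library 2, against 12.25 to 12.41 in the others, and this is the library that lay with the P10 libraries across genes. Sec24b in P10 saline had 11.30 in library 5, against 11.52 to 11.59. The 35 genes' share of all counts in P11 LPS was 0.706% in library 4, against 0.526% to 0.552%, and Arf4 was highest in the same library.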

How the results depend on the processing

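Counts of passing genes and medians kept their side and direction under the other model settings, filters and pseudocounts. Scaling moved them. As a share of all counts, an alternative added after seeing the data, 17 genes passed in saline dams (16 higher) with a median of 0.50 and 27 in LPS dams (26 higher) with a median of 0.91, and the medians of LPS against saline at P10 and P11 and of the difference of the effects were -0.34, 0.02 and 0.32. The LPS dam median was -0.52 after quantile normalisation, -0.99 after median centring and -0.34 with equal counts outside the milk protein list, where the P10 LPS median was -0.12. The summed share of the 35 genes rose by 0.178 and 0.243 percentage points between days in saline and LPS dams but fell by 0.27 and 0.29 points among counts outside that list. Named genes that fell on the deposited scaling were positive as a share of all counts in saline dams for Sec24c (0.50), Sec22b (0.59), Arf1 (0.73), Sar1a (0.40), Copg1 (0.17), Sec24b (0.58) and Sar1b (0.0319), and in LPS dams for Sec24a (0.20), Tmed10 (1.13), Kdelr1 (0.998), Sec24c (0.95), Sec22b (0.91), Arf1 (0.97), Sar1a (0.73), Copg1 (0.52), Sec24b (0.93) and Sar1b (0.24). This follows from the larger totals of the deposited counts at P10. Among 80 differences of the 16 named genes, 8 calls were lost and 2 gained with equal counts outside the milk protein list, 4 lost and 3 gained after quantile normalisation, 1 lost and 5 gained after median centring, 1 gained with weights per library, and 2 lost with the groups compared alone, a setting that gives no difference of the effects; the cause was not tested. With 1 library left out, 23 to 27 genes passed in saline and 26 to 28 in LPS dams, with medians of -0.76 to -0.52 and -0.76 to -0.68. The medians were then -0.06 to 0.0002 for LPS at P10, -0.26 to -0.04 at P11 and -0.29 to -0.05 for the difference of the effects, with 0 passing in each. Without P11 saline library 2 the summed share rose by 0.212 points. No pair ratio changed its call with pseudocounts of 1 or 10 or quantile normalisation. No paired analysis was possible because the columns carry no dam or replicate number from the labels. Depth is unknown, so small differences of the LPS comparisons cannot be set against counting error.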
